A study of Botryllus schlosseri with 12 samples.

Results

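The transcriptomes of regenerating Botryllus schlosseri colonies at 24 and 18 h post-injury (hpi) were compared, over every contig of the deposited table. The comparison rests on 6 of the 12 libraries of the series, 3 from 24 hpi and 3 from 18 hpi, and the 3 libraries each of 6 and 0 hpi were used to describe where the same contigs stood earlier and to estimate the spread between replicates. B. schlosseri is a colonial tunicate whose zooids live in a common tunic and share a network of blood vessels. Each library came from a separate subclone of a single isogenic strain that had been chosen for its ability to form vascular buds. At stage D of the asexual cycle all zooids and buds were cut out of each colony. The remaining tunic and vasculature were frozen at once for 0 hpi, or kept in filtered seawater for 6, 18 or 24 h before freezing. The study reports that small residues of adult zooids often stayed on the tunic after such surgery, so the frozen tissue may include them. All groups thus share the surgery, no uninjured colony is among them, and the replicates carry 1 genotype.

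In whole-body regeneration by vascular budding, a colony fragment without zooids rebuilds a complete zooid from tissue that ends up inside the vessels. The first hours after surgery are known for wound closure, contraction and remodeling of the vessels, and responses of the circulating blood cells, while visible buds appear later. The comparison of 24 with 18 hpi asks how far the expression profile still moves once this first response has passed. The RNA is that of the whole remaining colony, so more cells of a type and more RNA per cell cannot be told apart.

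The values are estimated counts per contig of a de novo transcriptome, in which a contig is an assembled transcript with an open reading frame. Library totals were 3808033, 2076597 and 3895273 at 24 hpi and 2807144, 3786668 and 2905805 at 18 hpi. Counts were normalized to library-scaled counts (CPM, parts-per-million of the scaled library total) with TMM factors, which assume that most contigs keep their level, and were tested with edgeR's quasi-likelihood test in a single fit of the 12 libraries. A contig was called where its Benjamini-Hochberg adjusted p was under 0.05 and its absolute log2 fold change above 1. Of 32561 contigs, 31383 had enough counts to be tested. The rows carry no gene names, so marker genes of tunic, vessel or blood cells could not be checked, and a gene is named only where the study's phylogenetic trees label a contig with it. No contig sequence was used here.

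The 24 hpi libraries did not form a tight group. Replicate 1 of 24 hpi lay closer to each 18 hpi library than to either of the other 24 hpi libraries, when distance is the root mean square difference of log2 CPM over the tested contigs. Its distance was 0.728 and 0.931 to the other 24 hpi libraries and between 0.663 and 0.694 to the 18 hpi libraries. The other 24 hpi libraries also had mean distances to 18 hpi below those to their own time point. Replicate 2, which has the smallest total, lay farthest from 18 hpi. The mean distance of replicate 2 was 0.854 to its own time point and 0.851 to 18 hpi, and that of replicate 3 was 0.753 to its own time point and 0.716 to 18 hpi. Each 18 hpi library had mean distances of 0.733 to 0.772 to the 24 hpi libraries and of 0.595 to 0.641 to its own group. With the counts of each library thinned to the smallest total, replicate 1 of 24 hpi still lay 0.742 and 0.883 from its own group and 0.677 to 0.692 from 18 hpi.

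**Figure D1:**
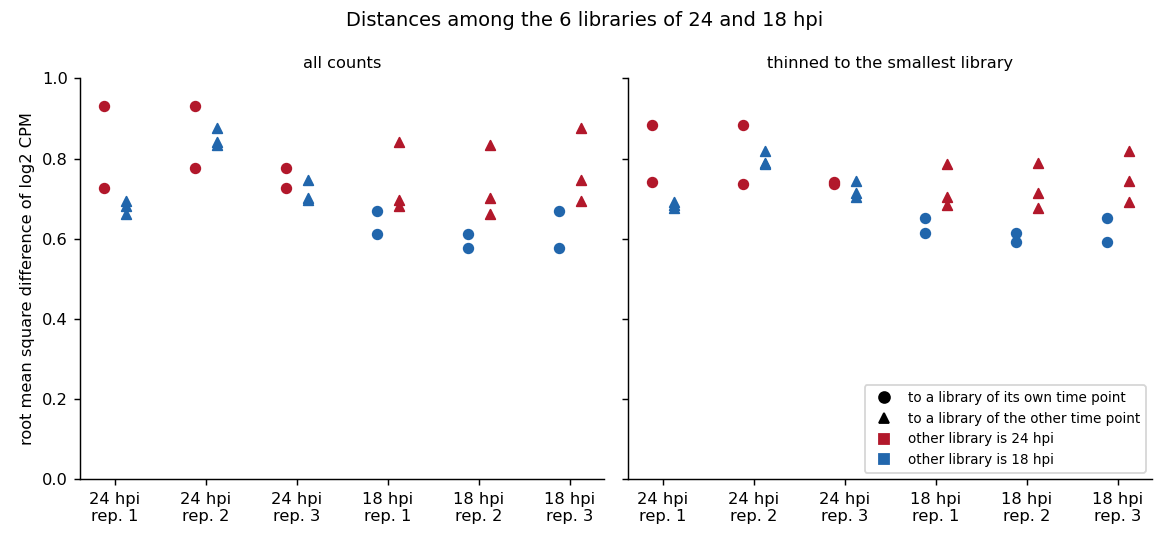
Distances among the 6 libraries, as the root mean square difference of log2 CPM (vertical axis), for each library (horizontal axis), with all counts (left) and with counts thinned to the smallest library (right). Circles are distances to libraries of the same time point, triangles to the other time point, and color shows the time point of the other library; replicate 1 of 24 hpi has its circles at 0.728 and 0.931 and its triangles between 0.663 and 0.694.

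Replicates also varied more at 24 hpi. The median over contigs of the SD of log2 CPM was 0.351 at 24 hpi and 0.249 at 18 hpi, against 0.299 at 6 hpi and 0.303 at 0 hpi, and 65.5% of the tested contigs had a larger SD at 24 than at 18 hpi. Of 31758 contigs with at least 30 counts in the 6 libraries, 16 had at least 90% of their CPM in replicate 1 of 24 hpi, against 1 in replicate 2, 3 in replicate 3 and 1 contig over the 3 libraries of 18 hpi. The counts of called contigs, of unadjusted p under 0.05 and of groups that do not overlap are therefore also given without replicate 1 of 24 hpi.

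Between 24 and 18 hpi only 8 contigs were called, 7 higher and 1 lower at 24 hpi. This is 0.0255% of the tested contigs, with 0.0223% called higher and 0.00319% called lower. The threshold on fold change removed none, since the same number had an adjusted p under 0.05, and 17 contigs, 16 of them higher, had an adjusted p under 0.1. At an unadjusted p under 0.05 there were 1447 higher contigs (4.61%) and 756 lower ones (2.41%), but with scaling by library size alone, without TMM factors, the same test gave 872 higher and 1326 lower, so the direction of this excess depends on the scaling. Without replicate 1 of 24 hpi these counts, with TMM, were 2628 higher (8.26%) and 1485 lower (4.67%) of 31802 tested. Replicate 1 was the 24 hpi library nearest to 18 hpi, so leaving it out favors larger counts. Every 24 hpi library was above every 18 hpi library for 1896 contigs (6.04%) and below for 1729 (5.51%). With replicate 1 of 24 hpi set aside, both remaining libraries were above every 18 hpi library for 5680 contigs (18.1%) and below for 4704 (15%), a condition that fewer libraries meet more easily.

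A small number of calls does not show that the other contigs stayed level. The middle 95% of the log2 fold changes ran from -0.92 to 1.00 around a median of 0.01, and 1456 contigs (4.64%) had an estimate beyond 1 or -1, of which 783 were higher and 673 lower. The 95% interval of the fold change lay wholly between -1 and 1 for 18028 contigs (57.4%), so that a change beyond the threshold lay outside it. The other 13355 had intervals that reached these bounds, except for 6 that had no standard error and so no interval. This share followed depth. It was 87.5% in the third of contigs with the highest CPM, 70.4% in the middle and 14.5% in the lowest, where the median standard error was 0.485 on the log2 scale, against 0.214 in the highest. Of the 8 calls, 7 fell in the highest group and 1 in the lowest. A called change itself moves this mean, so the placement is not independent of the call.

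**Figure D2:**
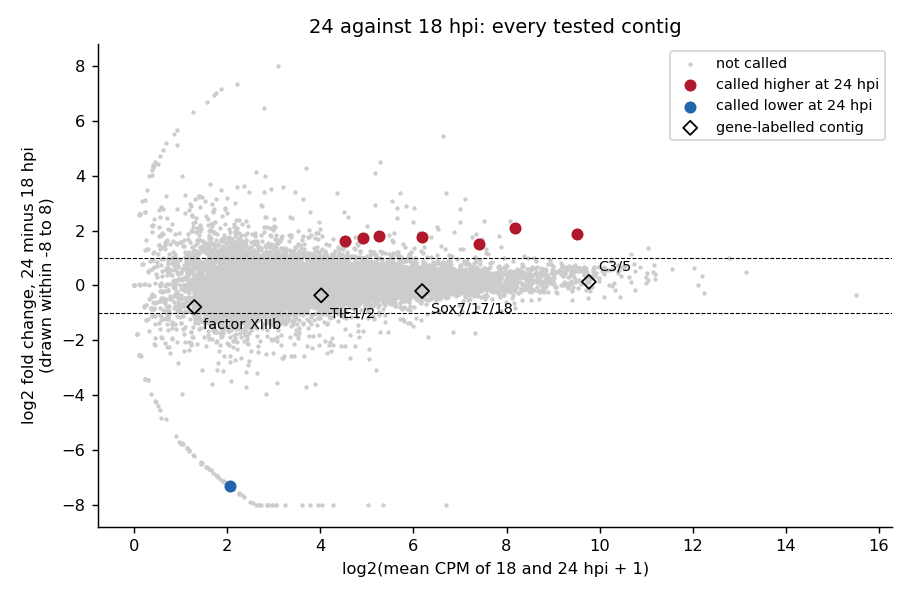
Log2 fold change of 24 minus 18 hpi (vertical axis, drawn within -8 to 8) against log2(mean CPM + 1) over both time points (horizontal axis) for each tested contig. Filled circles are the 7 contigs called higher and the 1 called lower, diamonds are contigs labelled with a gene, and dashed lines mark 1 and -1; gray points on the outer arcs have no or almost no counts at 1 of the time points, and their fitted fold changes are not bounds.

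The contig with the smallest p among those that rose was TRINITY_DN14262_c1_g8_i1.p1. It had 346.3, 487.9 and 580.3 CPM at 24 hpi, against 90.0, 157.7 and 80.2 CPM at 18 hpi. The lowest 24 hpi library was above the highest 18 hpi library, and replicate 1 of 24 hpi was the lowest of its group. The means were 471.5 ± 118 CPM at 24 hpi and 109.3 ± 42.2 CPM at 18 hpi (SD, n = 3 each), a log2 fold change of 2.11 (standard error 0.275, adjusted p = 0.0148, edgeR's quasi-likelihood test). This contig had climbed before, to 67.4 ± 17.3 CPM at 6 hpi, against 14.7 ± 2.30 CPM at 0 hpi (SD, n = 3 each), and it was also called higher in that earlier comparison (log2 fold change 2.20, adjusted p = 1.15e-04). Its mean was thus higher at each successive time point.

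The sixth of the risers by p is a neighbor of the first. Both belong to the same Trinity component, a cluster of overlapping assembled sequences that Trinity splits into genes and isoforms. The sixth riser had 1412, 802.9 and 1217 CPM at 24 hpi, against 263.1, 420.0 and 257.9 CPM at 18 hpi, with no overlap between the groups and its lowest 24 hpi value in replicate 2. Its log2 fold change was 1.87 (standard error 0.285, adjusted p = 0.0302). At 0 hpi it had 10.2 ± 3.31 CPM (SD, n = 3), and at 6 hpi it already stood at 328.0 ± 91.8 CPM (SD, n = 3), a log2 fold change of 5.01. Its mean at 18 hpi, 313.7 ± 92.1 CPM (SD, n = 3), lay within the range of the 6 hpi libraries.

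The estimates of these contigs are not whole numbers in 10 of the 12 libraries, because Kallisto divides a read that fits several contigs. Their sum was whole in each of the 12 libraries, within 0.01 of a count, so the divided reads were shared within the pair. The summed estimates were 7275, 2524 and 6739 counts at 24 hpi, against 1044, 2330 and 1083 at 18 hpi. The first riser took 19.7%, 37.8% and 32.3% of the sum at 24 hpi, against 25.5%, 27.3% and 23.8% at 18 hpi, and the division between the members is less certain than the sum. Of the other 4 contigs of this component, all tested, none was called. A pair of them had log2 fold changes of 1.77 and 1.86 with standard errors of 0.458 and 0.491, and the remaining pair were both at 0.06. The pair of calls is not independent evidence of movement.

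The second riser, TRINITY_DN15960_c1_g15_i1.p1, has whole estimates in all 12 libraries. It had 74.7, 39.9 and 59.7 CPM at 24 hpi, against 15.2, 17.4 and 17.8 CPM at 18 hpi. The 18 hpi libraries were close together and all well below the lowest 24 hpi library. The log2 fold change was 1.80 (standard error 0.247, adjusted p = 0.0148). Its means before were 13.8 ± 3.95 CPM at 6 hpi and 5.29 ± 1.16 CPM at 0 hpi (SD, n = 3 each), and it was called higher at 6 against 0 hpi (log2 fold change 1.40, adjusted p = 0.00478).

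The third riser had 105.4, 101.3 and 125.1 CPM at 24 hpi, against 25.0, 43.4 and 28.7 CPM at 18 hpi, the narrowest relative spread at 24 hpi among the 7. Its log2 fold change was 1.76 (standard error 0.256, adjusted p = 0.0243). It was close to undetected at 0 hpi, with 7, 3 and 6 counts, and had 50.6 ± 15.2 CPM (SD, n = 3) at 6 hpi. The mean was lower at 18 hpi (32.4 ± 9.71 CPM, SD, n = 3) than at 6 hpi, and that at 24 hpi was above both. The other 3 contigs of its Trinity gene had estimates in the same direction, from 1.22 to 2.31, without being called.

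In these 4 risers the mean was lowest at 0 hpi and highest at 24 hpi. The other 3 had their lowest mean at 18 hpi. The fourth riser peaked at 6 hpi. It had 38.4, 35.8 and 25.9 CPM at 24 hpi, against 11.2, 12.4 and 8.43 CPM at 18 hpi (log2 fold change 1.63, standard error 0.244, adjusted p = 0.0262), and the groups did not overlap. Its earlier means were 141.3 ± 20.6 CPM at 6 hpi and 19.2 ± 5.34 CPM at 0 hpi (SD, n = 3 each). This contig has fractional estimates in all 12 libraries, and its Trinity gene, summed over 6 contigs, was not called, with 228.3 ± 51.6 CPM at 24 hpi and 179.4 ± 39.7 CPM at 18 hpi (SD, n = 3 each; log2 fold change 0.34, adjusted p = 0.802).

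The fifth riser, with whole estimates throughout, had 52.7, 37.8 and 43.7 CPM at 24 hpi, against 8.79, 13.4 and 18.1 CPM at 18 hpi (log2 fold change 1.74, standard error 0.269, adjusted p = 0.0302). Every 24 hpi library was more than the highest 18 hpi library. It started high, at 53.3 ± 8.98 CPM at 0 hpi, and stood at 29.6 ± 9.75 CPM at 6 hpi (SD, n = 3 each). At 24 hpi its mean of 44.8 ± 7.47 CPM (SD, n = 3) was within the spread of the 0 hpi libraries, with a log2 fold change of -0.24 against 0 hpi (adjusted p = 0.595).

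The seventh riser was another contig that was highest at 0 hpi. It had 331.8, 175.4 and 245.9 CPM at 24 hpi, against 83.9, 108.8 and 70.2 CPM at 18 hpi (log2 fold change 1.52, standard error 0.244, adjusted p = 0.0386), without overlap. Its mean was 309.7 ± 62.8 CPM at 6 hpi and 1328 ± 75.9 CPM at 0 hpi (SD, n = 3 each), and it was called lower at 6 against 0 hpi. The 24 hpi level was still called below 0 hpi (log2 fold change -2.40). Its estimates are fractional in all 12 libraries, and the sum of its Trinity gene had a log2 fold change of 0.99 (adjusted p = 0.0717) and was not called. The other 2 contigs of that gene, neither called, had their lowest means at 0 hpi. They had 15.6 and 23.5 CPM at 0 hpi, against 252.3 and 189.6 CPM at 24 hpi. The course of this contig is therefore not that of the other contigs of its gene.

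The only contig called lower at 24 hpi, TRINITY_DN15167_c0_g2_i3.p1, is listed with 0 counts in all 3 libraries of 24 hpi, against 16.5, 23.0 and 24.5 counts at 18 hpi. Its level at 18 hpi was 5.41, 5.70 and 7.80 CPM, and its mean was 11.1 ± 0.609 CPM at 6 hpi and 18.4 ± 4.66 CPM at 0 hpi (SD, n = 3 each). Its means were thus lower at each successive time point. With a floor of 3 counts over the 24 hpi group (0.305 CPM), against 6.28 CPM in the pooled 18 hpi libraries, it was at least 20.6-fold lower at 24 hpi, and its adjusted p was 0.00232. The floor covers counting error only. Its estimates are fractional in 9 libraries, that is in every library where it has a count, and its Trinity gene as a whole was not called, with 24.1 ± 6.95 CPM at 24 hpi and 37.3 ± 4.86 CPM at 18 hpi (SD, n = 3 each; log2 fold change -0.61, adjusted p = 0.423). The other 3 contigs of that gene had log2 fold changes of -1.98, -0.08 and 0.46, none called.

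The next contig among those with a lower estimate, TRINITY_DN3966_c0_g1_i1.p2, was not called (adjusted p = 0.116). It had 4, 0 and 2 counts at 24 hpi, against 26, 42 and 16 counts at 18 hpi. The groups did not overlap, and the log2 fold change was -3.70 (standard error 0.714). Its mean was 0.20 CPM at 0 hpi, 3.00 CPM at 6 hpi, 8.07 CPM at 18 hpi and 0.50 CPM at 24 hpi. Its adjusted p lay between 0.0350 and 0.545 in the 18 alternative analyses that gave one, and of these it was called only without replicate 1 of 24 hpi. DESeq2 gave it a log2 fold change of -3.80 and an unadjusted p of 7.63e-06, but no adjusted p.

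**Figure D3:**
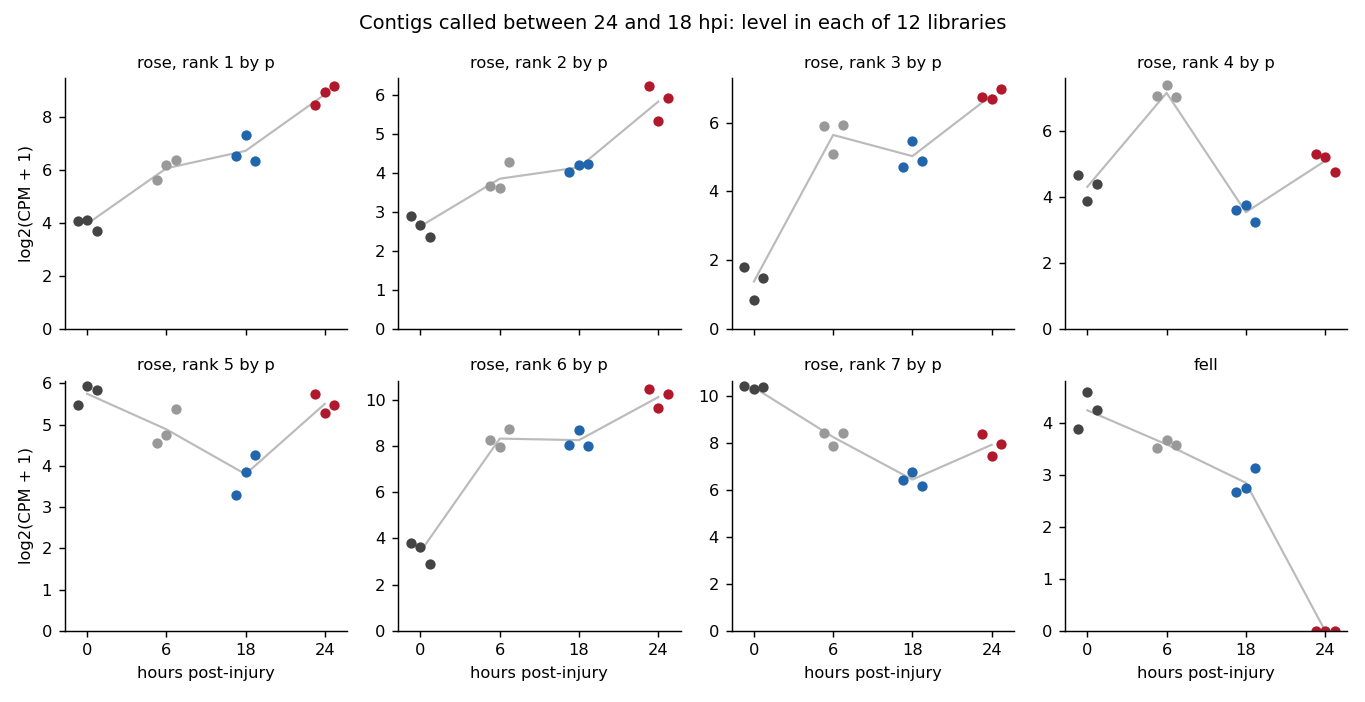
Levels of the 8 called contigs as log2(CPM + 1) (vertical axis, starting at 0) in each of the 12 libraries at 0, 6, 18 and 24 hpi (horizontal axis); points are libraries, side by side within a time point by replicate number, and the line joins the means of the plotted values. In the 4 panels ranked 1, 2, 3 and 6 the mean is lowest at 0 hpi and highest at 24 hpi, in those ranked 4, 5 and 7 it is lowest at 18 hpi, and the contig that fell has 0 counts in each 24 hpi library.

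How these contigs behaved at 6 against 0 hpi shares no library with the comparison that chose them, although both use the same estimate of the spread per contig. Of the 7 risers, 5 were called higher at 6 hpi, 1 lower and 1 neither, where 4.63% of all tested contigs were called higher and 5.03% lower at 6 against 0 hpi. The first and sixth risers, which share reads, are both among these 5. All 7 risers lie in the third of contigs with the highest CPM, which is measured more precisely than the contigs as a whole. The contig that fell was not called at 6 hpi (adjusted p = 0.112). Behind the 8 calls came 9 contigs with an adjusted p from 0.0535 to 0.0947, all with higher estimates at 24 hpi, from 0.99 to 2.45 on the log2 scale. Their means ranged from 16.2 to 145.8 CPM at 24 hpi, against 2.95 to 68.2 CPM at 18 hpi. Of these 9, which were not called, 6 had been called higher at 6 against 0 hpi and 2 lower. The highest of their 4 means fell at 24 hpi in 4 contigs, at 6 hpi in another 4 and at 0 hpi in the remaining 1, while the lowest was at 18 hpi in 4 of them.

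The contigs that moved early can be followed as lists for the same reason. The 1452 contigs called higher at 6 against 0 hpi had a median log2 fold change of 0.16 at 24 against 18 hpi (quartiles -0.11 and 0.46), against 0.01 over all tested contigs. The estimate was above 0 for 66.0% of them, against 51.7% of all. An unadjusted p under 0.05 was reached by 224 (15.4%) in the higher and 43 (2.96%) in the lower direction, beside the 4.61% and 2.41% of all tested contigs, and 5 were called, all higher. The 24 hpi libraries had medians of 0.12, 0.24 and 0.15 against the mean of 18 hpi. They share that mean, so these medians are not independent of each other. The median CPM of this list was 19.0, against 12.8 over all contigs, so the list was also measured more precisely.

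The 1578 contigs called lower at 6 against 0 hpi had a median of 0.07 at 24 against 18 hpi (quartiles -0.30 and 0.45), and 56.0% had an estimate above 0. Here the 24 hpi libraries differed among themselves, with medians of -0.06, 0.08 and 0.13, and replicate 1 was below 0. At an unadjusted p under 0.05 there were 112 (7.10%) higher and 55 (3.49%) lower contigs, and 1 was called, higher. The remaining 28353 contigs had a median of 0.01. Scaling by library size alone moved the median of all contigs to -0.09 and the medians of both lists to 0.05 for the early risers and -0.03 for the early fallers. Relative to all contigs the early risers lay 0.15 higher with TMM and 0.14 higher with library size alone, and the early fallers 0.05 and 0.06 higher. Without replicate 1 of 24 hpi the medians were 0.17 for the early risers and 0.13 for the early fallers, and over all 12 libraries left out singly the second ranged from 0.03, without replicate 2 of 24 hpi, to that 0.13.

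**Figure D4:**
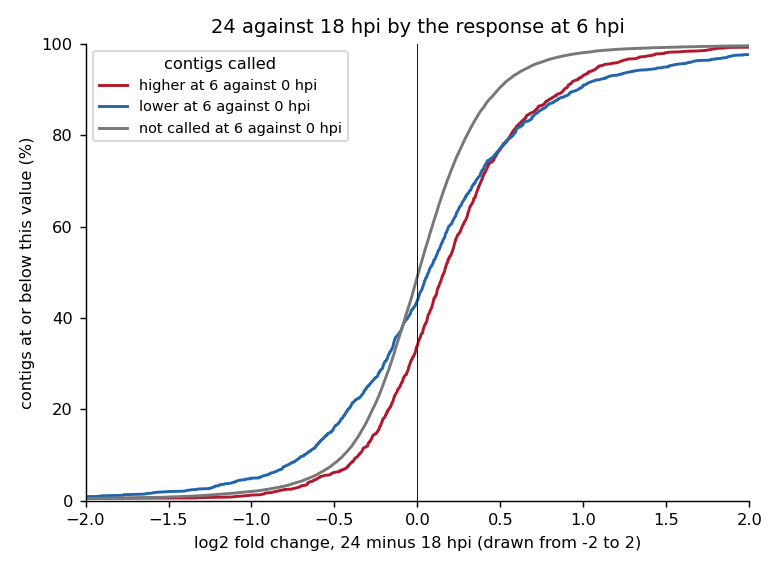
Cumulative share of contigs (vertical axis, percent) by log2 fold change at 24 minus 18 hpi (horizontal axis, drawn from -2 to 2) for contigs called higher, called lower and not called at 6 against 0 hpi. The curve of the early risers lies to the right of the others around its median of 0.16, while that of the early fallers is wider, with quartiles of -0.30 and 0.45.

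The number of calls rested on single libraries. Without replicate 1 of 24 hpi, 148 contigs were called higher (0.465%) and 25 lower (0.0786%) of 31802 tested, and all 8 calls above were among them. As this replicate was the 24 hpi library nearest to 18 hpi, its omission favors more calls. Without replicate 2 of 24 hpi 10 contigs were called, and without replicate 3 only 3. Without replicate 1 or 3 of 18 hpi only the contig that fell was called, and without replicate 2 of 18 hpi 5 were. The first riser lost its call in 3 of the 20 alternative analyses, each of them a left-out library (replicate 3 of 24 hpi, and replicates 1 and 3 of 18 hpi), the third in 5, the fourth in 6, the sixth in 8 and the seventh in 12. The second lost it in 5, the fifth in 9 and the contig that fell in 1 of the 19 alternatives that gave them an adjusted p. The contig that fell was not called by limma-voom (log2 fold change -5.31, adjusted p = 0.266, against 0.00143 at the lowest over its alternatives). DESeq2 called 49 contigs, but gave no adjusted p for 27101 contigs. Among these were the contig that fell (log2 fold change -6.74, unadjusted p = 4.66e-08), the second riser (1.80, unadjusted p = 2.08e-09) and the fifth (1.74, unadjusted p = 7.94e-09). No called contig changed direction in any alternative.

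Replicate 1 of 24 hpi was not used in choosing these 148 and 25 contigs, so its own level can be read in them. It lay above all 3 libraries of 18 hpi for 74 of the 148 and below all of them for 26. On a scale on which the 18 hpi mean is 0 and the mean of the other 24 hpi libraries is 1, its median position was 0.16 (quartiles -0.09 and 0.42). The libraries that set this scale also chose the contigs. A left-out library therefore tends to fall below 1 for that reason alone. For the 25 lower contigs it was below all 18 hpi libraries in 10 and above all of them in 8, with a median position of 0.15. How often replicate 1 lies beyond all 18 hpi libraries over all tested contigs was not counted. These counts therefore have no background to be read against. The same reading for the other libraries rests on few contigs. Replicate 2 of 24 hpi lay beyond all 18 hpi libraries for all 7 contigs called higher without it, with a median position of 0.66. Replicate 2 of 18 hpi had a median position of 0.65 over 4 contigs, on the corresponding scale of its own group. Of these 7 and 4 contigs, 6 and 3 were also called with all libraries in the fit.

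The median levels of the 148 contigs were 36.3, 68.5 and 63.8 CPM in replicates 1, 2 and 3 of 24 hpi, against 27.6 CPM for the mean of 18 hpi. Their medians at the earlier time points were 46.7 CPM at 6 hpi and 32.4 CPM at 0 hpi. Of the 148, 46 (31.1%) had been called higher at 6 against 0 hpi and 10 (6.76%) lower, beside 4.63% and 5.03% of all tested contigs. The median levels of the 25 lower contigs were 11.4, 1.53 and 2.40 CPM in replicates 1, 2 and 3 of 24 hpi, against 13.3 CPM at 18 hpi. Whether replicate 1 differs in its timing, its tissue or its library was not tested.

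**Figure D5:**
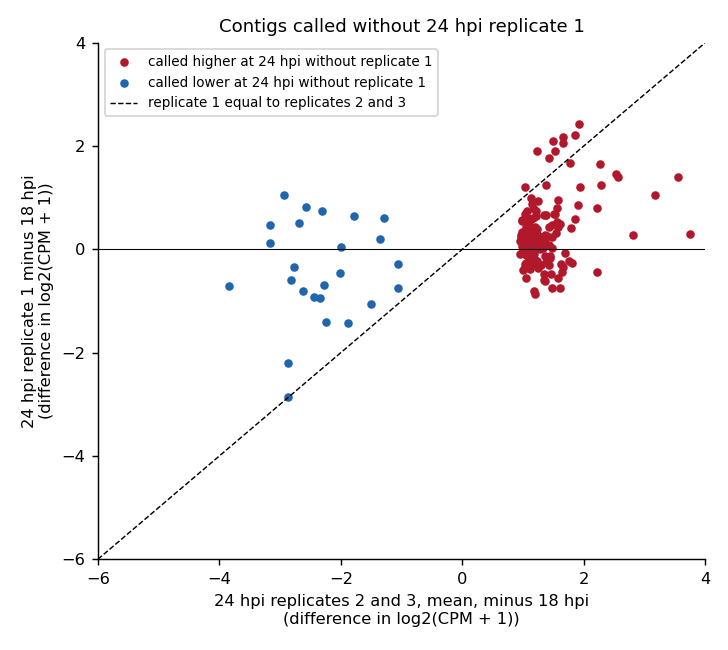
Contigs called at 24 against 18 hpi without replicate 1 of 24 hpi, with the difference of replicates 2 and 3 from the 18 hpi mean (horizontal axis) and that of replicate 1 from the same mean (vertical axis), both in log2(CPM + 1). The dashed line marks equal differences and the horizontal line no difference. Replicate 1 lies above all 18 hpi libraries for 74 of the 148 higher contigs and below all of them for 26. Of the 25 lower contigs, it lies below all 18 hpi libraries for 10 and above all of them for 8.

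Few contigs had counts in every library of 24 or 18 hpi and none in any library of the other. Counts at 0 and 6 hpi were not part of this condition. Counts in all 3 libraries of 24 hpi with none at 18 hpi occurred for 9 contigs, of which 4 had enough counts to be tested and none was called. The largest of these had 684, 1 and 2 counts at 24 hpi, so that nearly all of it came from replicate 1. The reverse, counts in all 18 hpi libraries and none at 24 hpi, occurred for 13 contigs, of which 10 were tested and 1 called, the one described above. The largest of these had 4, 1115 and 1084 counts at 18 hpi, against 0 in each 24 hpi library, and its replicates of 0 hpi also differed by far, with 2925, 2 and 1 counts.

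Of the contigs that the phylogenetic trees label with a gene, 4 were matched to a row, and none of these 4 was called at 24 against 18 hpi. The complement system tags and clears pathogens and debris, and C3 and C5 are its central proteins. The C3/5 contig had 916.2, 988.6 and 826.2 CPM at 24 hpi, against 716.4, 857.8 and 920.0 CPM at 18 hpi. These overlapped, and the log2 fold change was 0.13 with a 95% interval from -0.29 to 0.55, so that a change beyond the threshold lay outside the interval. Factor XIII stabilizes clots in vertebrates by cross-linking fibrin, and its B chain is the carrier of the enzyme, not the enzyme itself. The contig labelled coagulation factor XIIIb had 4, 1 and 6 counts at 24 hpi, against 7, 12 and 1 counts at 18 hpi, and its interval ran from -2.33 to 0.76, so that no difference was detectable at this depth and a large one cannot be set aside.

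TIE receptors are angiopoietin receptors of vertebrate endothelium. The TIE1/2 contig had 14.7, 10.7 and 14.1 CPM at 24 hpi, against 15.2, 15.9 and 20.6 CPM at 18 hpi. Every 24 hpi library was below every 18 hpi library, as for 5.51% of all contigs, with a log2 fold change of -0.36 (95% interval -0.88 to 0.15, adjusted p = 0.852). Sox7, Sox17 and Sox18 are transcription factors of vertebrate endothelial and endodermal cells. The Sox7/17/18 contig had 70.1, 50.6 and 78.7 CPM at 24 hpi, against 72.7, 74.9 and 84.0 CPM at 18 hpi, with overlap and a log2 fold change of -0.21 (95% interval -0.61 to 0.20, adjusted p = 0.912). For both contigs the interval stayed between -1 and 1.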

How the data were processed

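RNA of 12 subclones was sequenced on an Illumina HiSeq, 3 libraries at each of 4 time points. Per the labels and the study's methods, the authors removed ribosomal reads, trimmed with Trimmomatic (0.30 in the submitters' processing notes), assembled with Trinity, kept open reading frames, collapsed similar transcripts and quantified with kallisto (0.43.1 in the same notes). They deposited estimated counts per contig, neither normalized nor divided by length; 9816 of 32561 contigs (30.1%) have a fractional estimate. No genome was used.

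Estimates were rounded to whole numbers. R 4.3.3 was used with edgeR 4.0.16 (filterByExpr, TMM, robust quasi-likelihood fit of 12 libraries without covariate, common biological coefficient of variation 0.243), and with DESeq2 1.42.0 and limma 3.58.1 for alternatives. Log2 CPM used a prior count of 2. Standard errors were obtained from the fold change and the F statistic of each contig. Distances on thinned counts and counts of non-overlapping groups without replicate 1 of 24 hpi were added after seeing the data, as were the readings of left-out libraries other than replicate 1 of 24 hpi. The members and lists were chosen with earlier results of these data known. Identifiers are printed for at most 2 contigs in each direction, those with the smallest p, since the table does not pair them with genes; contigs labelled in the study's trees form the gene list, and the Ets-1 contig of those trees was not matched to a row. No replicate pair agreed within sampling noise (chi-square per degree of freedom at least 3.17). The median contig had 23 to 49.6 counts in a library of 24 or 18 hpi.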

Additional observations from a re-analysis of the deposited data

How the results depend on the processing

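The 8 calls were the same 8 with RLE size factors and without a filter on low counts, and all 8 were among 9 with a filter of at least 10 counts in 6 libraries. Library size alone left 2 calls, 1 higher and 1 lower against 7 and 1 with TMM, and 2 contigs with an adjusted p under 0.05. The 6 libraries of 24 and 18 hpi alone gave 8 calls, of which only 4 were shared, limma-voom gave 11 (7 shared) and DESeq2 49 (39 higher and 10 lower), with 115 at an adjusted p under 0.05. DESeq2 gave no adjusted p to 3 of the 8, and called the other 5. Estimates summed per Trinity gene gave 17 called genes, 16 of them higher, and 18 at an adjusted p under 0.05. The cause of these differences was not tested. With single libraries left out, calls ranged from 1 to 173 and contigs with an adjusted p under 0.05 from 1 to 260. For the 8 called contigs over 20 alternatives, the call was kept in 108 results and lost in 49, with no change of direction, leaving out the 3 without an adjusted p.

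The share of contigs with an interval within 1 log2 moved from 57.4% to 56.6% with library size alone, 55.4% without a filter, 61.6% with the strict filter, 60.7% with the 6 libraries alone, 55.8% with the replicate block and 67.9% per Trinity gene, and ranged from 45.1% to 57.1% with single libraries left out. The median of the contigs called higher at 6 hpi was 0.051 with library size alone and ranged from 0.13 to 0.19 over the left-out libraries, and that of the contigs called lower ranged from 0.03 to 0.13.

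Replicate numbers are shared between the time points, but do not pair the libraries: deviations from the group means of libraries with the same number correlated at -0.04, 0.02 and -0.03. A fit with the number as a replicate block called 6 contigs, 5 of them shared. Subclones of 1 strain, 3 libraries a group and the library totals limit what can be detected, above all for contigs of low CPM.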

Other observations

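The contig with the most counts among those absent at 24 hpi and present in each 18 hpi library followed an all-or-none pattern over the series that does not follow time. It had 2925, 2 and 1 counts at 0 hpi, 1596, 1481 and 1256 at 6 hpi, 4, 1115 and 1084 at 18 hpi, and 0 in each 24 hpi library. A search chosen after these values were seen, for contigs with at least 10 counts in each of the same 6 libraries and at most 5% of the lowest of these in each other library, found 30 contigs with this pattern, including the first. Of these 30, 3 are among the 13 contigs with counts in all 18 hpi libraries and none at 24 hpi. Others of the 13 looked alike but missed the cutoffs of the search. An example had 12, 0 and 0 counts at 0 hpi and 1, 59 and 60 at 18 hpi. Replicate 1 of 18 hpi and all 24 hpi libraries thus stood with replicates 2 and 3 of 0 hpi. None of the 30 was called at 24 against 18 hpi. What sets these libraries apart was not tested.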
